A study of Mus musculus with 12 samples.

Results

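The genes described here are 9 cytokine and growth factor receptors of BM progenitors, taken by gene name from the 32285 genes of the deposited table: Csf1r, Csf2ra, Csf2rb, Csf3r, Il6ra, Il6st, Il2rg, Crlf2 and Il1r1. All 9 passed the filter on low counts that left 13367 genes for testing. Cytokine receptors work as assemblies, in which a ligand-binding chain pairs with a chain shared by several cytokines. Il6st encodes gp130, the shared signaling chain of the IL-6 family, and Il6ra the chain that binds IL-6. Il2rg encodes the common gamma chain, which pairs with the IL-7 receptor chain Il7r to transmit the IL-7 signal needed by mouse lymphoid progenitors, while Crlf2 pairs with Il7r to bind TSLP. Csf1r, Csf3r and the Csf2ra-Csf2rb pair are the receptors for the myeloid growth factors M-CSF, G-CSF and GM-CSF, and Il1r1 binds IL-1.

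The 2 progenitor types were compared at 2 ages, which gives the groups 1MO CLP, 3MO CLP, 1MO MPP and 3MO MPP, named for mice of 1 and 3 months. All were WT C57BL6/J mice, and the tissue was bone marrow in every group. The CLPs were sorted as Ly6d- common lymphoid progenitors from IL-7R+ cells and the MPPs as Flk2+ multipotent progenitors from IL-7R-, c-kit+ Sca-1+ cells, both within lineage-negative Flk2+ CD27+ BM cells. Each group holds 3 libraries from independent experimental repeats. In bulk RNA of a sorted gate, fewer cells that carry a transcript and less of it per cell cannot be told apart.

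Library totals ranged from 8889083 to 20677785 estimated counts, with a median of 13208993, and a receptor was never covered by fewer than 173 counts in a library. Values are CPM, the counts of a gene scaled to a common library total, which correct for depth but not for gene length. The sort was checked against marker genes. The summed level of 9 lymphoid progenitor markers was 4986 to 6127 CPM in CLPs and 1903 to 2549 CPM in MPPs, and that of 9 stem and multipotent markers was 889 to 1009 CPM in CLPs and 2007 to 2265 CPM in MPPs. No library crossed over in either sum, although Il7r, Flt3, Cd27, Ly6d, Kit and Ly6a in these lists encode proteins the gates themselves used. Among the markers of other lineages, the summed level was 8.99 to 118 CPM for 7 B lineage markers, 9.33 to 13.6 CPM in CLPs and 16.3 to 23.4 CPM in MPPs for 7 T or NK markers, 9.09 to 99.7 CPM for 5 erythroid markers and 85.3 to 245 CPM for 5 mast cell or eosinophil markers. Neutrophil lineage markers, at 618.3 to 1327 CPM, and dendritic cell markers, at 820 to 1066 CPM in CLPs, reached sums like those of the stem and multipotent markers in CLPs. The sum of 7 stromal and endothelial markers was 360 to 963 CPM in CLPs and 182 to 315 CPM in MPPs. Stromal collagen RNA was uneven, as Col1a1 stood at 134 to 400 CPM in 1MO CLPs and at 0 to 1.92 CPM in 3MO CLPs.

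The promoters of 4 of the 5 receptors called between CLPs and MPPs at both ages are shown, which leaves out Csf1r, since the RefSeq promoter entries used here matched 7 of the 9 receptors, all but Csf1r and Csf2rb. Each sequence is the 250 bases before the gene's RefSeq start on GRCm38.p6, written in the direction of transcription. The windows lie at chr13:112463820-112464069 (plus strand) for Il6st, chr4:126024409-126024658 (plus strand) for Csf3r, chrX:101268256-101268505 (minus strand) for Il2rg and chr1:40224830-40225079 (plus strand) for the first of 2 listed starts of Il1r1. Capitals mark GAGGAA, a core that PU.1 and other ETS factors can bind, or TTGCNNAA, a C/EBP type motif, on either strand. The Il6st and Il2rg windows hold neither and are in lower case throughout.
Il6st: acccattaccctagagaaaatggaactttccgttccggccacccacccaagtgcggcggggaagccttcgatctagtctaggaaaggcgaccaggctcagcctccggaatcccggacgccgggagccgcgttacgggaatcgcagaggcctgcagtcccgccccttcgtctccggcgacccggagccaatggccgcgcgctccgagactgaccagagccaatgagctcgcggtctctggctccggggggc
Csf3r: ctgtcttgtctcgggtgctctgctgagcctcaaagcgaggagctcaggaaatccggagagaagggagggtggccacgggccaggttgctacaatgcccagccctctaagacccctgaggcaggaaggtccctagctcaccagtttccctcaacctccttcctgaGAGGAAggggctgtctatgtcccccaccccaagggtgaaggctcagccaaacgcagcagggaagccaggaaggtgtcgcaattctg
Il2rg: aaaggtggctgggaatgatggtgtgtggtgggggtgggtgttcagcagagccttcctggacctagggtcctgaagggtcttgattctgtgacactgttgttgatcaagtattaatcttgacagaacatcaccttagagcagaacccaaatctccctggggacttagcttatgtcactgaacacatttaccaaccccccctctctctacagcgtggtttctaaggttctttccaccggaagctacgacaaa
Il1r1: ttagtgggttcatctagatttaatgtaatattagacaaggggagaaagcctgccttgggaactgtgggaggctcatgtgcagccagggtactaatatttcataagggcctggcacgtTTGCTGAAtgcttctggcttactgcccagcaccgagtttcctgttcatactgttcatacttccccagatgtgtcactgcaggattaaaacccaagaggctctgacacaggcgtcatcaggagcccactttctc
The other motifs searched on both strands were TGTGGT, of the type bound by RUNX factors, AGATAA, a letter string typical of the blood factors Gata1 and Gata2, the E box CAGCTG, and TTCNNNGAA, of the type bound by STAT factors. GAGGAA was found in Csf3r at 86 to 81 bases before the start, and in 23.3% of all 32851 promoter windows of this length. TTGCNNAA was found in Il1r1 at 133 to 126 bases before the start and in 9.56% of windows, and TGTGGT in Il2rg at 227 to 222 bases before the start and in 14.0% of windows. Of the 7 receptors searched, Csf3r, Il6ra, Crlf2 and Csf2ra held GAGGAA. None of the 6 motifs occurs in the Il6st window, and the remaining shares are 9.99% for AGATAA, 13.001% for CAGCTG and 7.02% for TTCNNNGAA. Matches of this kind are a property of the letters and were not tested against the RNA levels.

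The receptors were first compared between the 2 cell types. In the comparison of 1MO CLPs with 1MO MPPs, 5 of the 9 receptors passed an adjusted p of 0.05 in edgeR's quasi-likelihood test, against 5.38% of all genes tested. Il6st and Csf1r were higher in CLPs, a direction called for 2.57% of all genes, and Csf3r, Il1r1 and Il2rg were lower, a direction called for 2.81%. At 3MO the same 5 receptors passed in the same directions, against 6.07% of all genes, of which 2.73% were higher and 3.34% lower. With 1 library left out, 3 to 5 receptors passed at 1MO and 2 to 5 at 3MO. The CPM of the 2 cell types did not overlap for 6 of 9 receptors at each age, as Crlf2 joined the 5 called, and the background of such genes was 24.9% at 1MO and 21.8% at 3MO. The median log2 difference over the 9 receptors was -0.36 at 1MO and -0.38 at 3MO, against -0.02 and -0.03 over all genes tested. The 1MO and 3MO comparisons share no libraries, but they share an estimate of the spread, as all 12 libraries were fitted together. In fits of only the 6 libraries compared, 3 receptors passed at 3MO and the same 5 at 1MO.

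**Figure D1:**
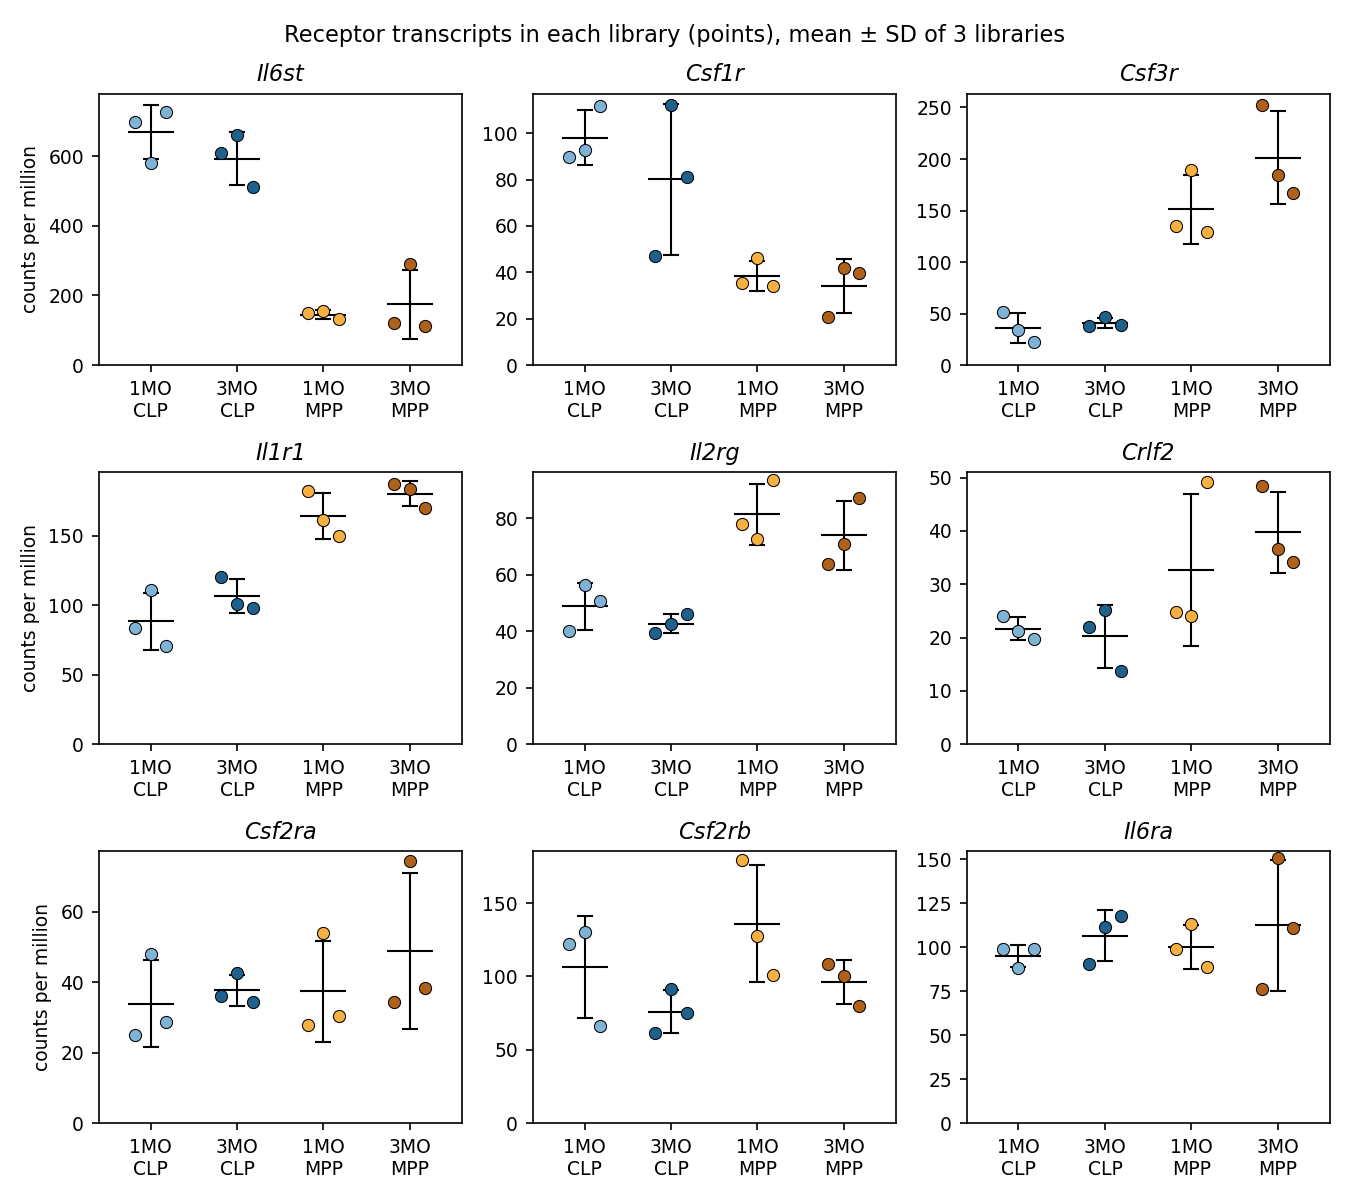
CPM of each receptor (vertical axes, from 0) in the 12 libraries, drawn as points by group, with the mean and SD of 3 libraries as bars. Il6st lies at 510 to 726 CPM in CLPs and at 113 to 289 CPM in MPPs, Csf3r has the opposite order, and Csf2ra, Csf2rb and Il6ra overlap between CLPs and MPPs at each age.

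Il6st was the receptor furthest toward CLPs. In 1MO CLPs it was measured at 699, 580 and 726 CPM, and in 3MO CLPs at 608, 660 and 510 CPM. In MPPs it was measured at 150, 154 and 132 CPM at 1MO and at 121, 289 and 113 CPM at 3MO. Every CLP library lay above every MPP library, and the second replicate of 3MO MPPs stood apart from its group. The log2 difference between CLPs and MPPs was 2.20 ± 0.29 (SE, n = 3 per group) at 1MO, a 4.61-fold higher level, with an edgeR adjusted p of 0.000187. At 3MO it was 1.76 ± 0.28, or 3.39-fold, with an edgeR adjusted p of 0.00118, and without the second 3MO MPP replicate it was 2.34. The gene (chr13:112464070-112510086, plus strand) had no overlapping annotated gene.

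Il6ra, which encodes the chain that gives Il6st its IL-6 specificity, stayed at similar values in all groups. It was measured at 98.9, 88.0 and 98.7 CPM in 1MO CLPs, at 90.5, 112 and 118 CPM in 3MO CLPs, at 99.0, 113 and 88.5 CPM in 1MO MPPs and at 76.2, 151 and 111 CPM in 3MO MPPs. The groups overlapped throughout. The log2 difference between cell types was -0.07 at 1MO, with a 95% interval from -0.53 to 0.38, and -0.08 at 3MO, with an interval from -0.54 to 0.38. Both intervals include 0 and neither shows that the levels are equal. Il6ra (chr3:89864059-89913196, minus strand) overlaps the antisense gene Gm42809, and the strand setting of the counting is not given in the sources used here.

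The relation between the 2 chains was taken as the ratio of their levels per kilobase of exon, within each library, so that depth cancels. The Il6st to Il6ra ratio was 3.38 to 5.73 in the 6 CLP libraries and 0.796 to 1.497 in the 6 MPP libraries. No CLP library reached the MPP range. On average the ratio was 4.29-fold higher in CLPs (exact permutation test, two-sided, p = 0.00216, adjusted p = 0.00541 over 5 ratios, higher in 6 of 6 libraries). This p is the smallest that 6 against 6 libraries can give.

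Other receptors that use gp130 were read from a list of partner chains. Lifr, the LIF receptor chain, was 69.8 ± 7.81 CPM in 1MO CLPs and 19.0 ± 10.8 CPM in 1MO MPPs (SD, n = 3), a log2 difference of 1.88 ± 0.42 (SE) with an edgeR adjusted p of 0.0126. At 3MO Lifr was 44.2 ± 11.04 CPM in CLPs and 19.0 ± 8.18 CPM in MPPs, and the log2 difference of 1.22 did not pass, with an edgeR adjusted p of 0.103, while DESeq2 gave 0.0352, the fit with a replicate block 0.0356 and the fit to all genes of at least 1 count 0.0111. Il11ra1, the IL-11 receptor chain, and Il27ra, which pairs with gp130 for IL-27, did not pass at either age, with log2 differences of -0.37 and -1.28 for Il11ra1 and -0.21 and -0.47 for Il27ra, although Il11ra1 passed at 3MO in the fit to all genes of at least 1 count (edgeR adjusted p of 0.0437). Osmr and Cntfr, the chains for oncostatin M and CNTF, had no count in any of the 12 libraries.

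Csf1r, the M-CSF receptor of the monocyte and macrophage lineage, was the other receptor higher in CLPs (chr18:61100598-61132149, plus strand, overlapping Hmgxb3 on the opposite strand). It was measured at 89.9, 92.8 and 112 CPM in 1MO CLPs and at 35.5, 46.0 and 34.1 CPM in 1MO MPPs. At 3MO it was 47.2, 112 and 80.9 CPM in CLPs and 20.9, 41.9 and 39.7 CPM in MPPs. The cell types did not overlap at either age, but the lowest 3MO CLP library, replicate 1, lay close to the highest MPP library. The log2 difference was 1.35 ± 0.30 (SE) at 1MO and 1.23 ± 0.30 at 3MO, with edgeR adjusted p of 0.0135 and 0.0234. Each call was lost in 3 of 12 fits with 1 library left out, and the adjusted p was then 0.0566 to 0.0682 at 1MO (without 1MO CLP replicate 3 or 1MO MPP replicate 1 or 3) and 0.0607 to 0.120 at 3MO (without 3MO CLP replicate 2 or 3 or 3MO MPP replicate 1). The 3MO call was also lost in a fit of only the 6 libraries compared, with an edgeR adjusted p of 0.101.

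Markers of dendritic cells, of the B lineage and some of monocytes moved with Csf1r and Il6st. The summed level of 9 dendritic cell markers was 820 to 1066 CPM in CLPs and 88.1 to 145 CPM in MPPs, and 4 of the 7 tested were higher in CLPs at each age, against 2.57% of all genes at 1MO and 2.73% at 3MO. Irf8, a factor of dendritic cell and monocyte development, made up most of that sum, with 848 ± 46.3 CPM in 1MO CLPs and 71.2 ± 22.9 CPM in 1MO MPPs, while Xcr1 was at 0 in all 4 groups. Of 11 monocyte and macrophage markers, 9 were tested, of which Ly6c2 and Cx3cr1 were higher in CLPs at 1MO and Cx3cr1 at 3MO. Their sum was 186 to 199 CPM in 1MO CLPs and 106 to 145 CPM in 1MO MPPs, without overlap, and 179 to 272 and 146 to 239 CPM at 3MO, with overlap. Cd14 was at 0 in 1MO CLPs, 3MO CLPs and 1MO MPPs and at most 0.360 CPM in 3MO MPPs. The sum of the 7 B lineage markers was 83.0 to 118 CPM in 1MO CLPs and 13.2 to 20.6 CPM in 1MO MPPs, and 39.4 to 61.7 and 8.99 to 20.8 CPM at 3MO, without overlap. Of 6 tested, Ebf1 was higher in CLPs at 1MO and Ebf1 and Pax5 at 3MO. The part of such cells in the Csf1r and Il6st values was not tested. The stromal and endothelial sum was also higher in CLPs at each age. The median log2 difference of its 7 genes was 1.57 at 1MO, with 2 called higher and 0 lower, against 5.38% of all genes called. At 3MO the median was -1.72, with 1 called higher and 1 lower, against 6.07%. Col1a2 was at most 1.66 CPM in 3MO CLPs. Pecam1, an endothelial marker that blood cells also carry, was 280 ± 16.8 CPM in 3MO CLPs and 149.7 ± 24.8 CPM in 3MO MPPs. The part of stromal or endothelial cells in the receptor values was not tested.

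Csf3r, the G-CSF receptor of neutrophil precursors, had the opposite pattern. It was measured at 51.3, 34.3 and 22.6 CPM in 1MO CLPs and at 38.3, 46.8 and 38.7 CPM in 3MO CLPs. In MPPs it was 135, 190 and 129 CPM at 1MO and 252, 185 and 167 CPM at 3MO. All MPP libraries lay above all CLP libraries. The log2 difference was -2.07 ± 0.27 (SE) at 1MO, or 4.20-fold lower in CLPs, and -2.28 ± 0.27 at 3MO, or 4.87-fold lower, with edgeR adjusted p of 0.000196 and 0.000106. The summed level of 11 neutrophil lineage markers had the other direction at 1MO, with 946 to 1327 CPM in CLPs and 674 to 822 CPM in MPPs, and overlapped at 3MO, with 862 to 1145 and 618.3 to 1001 CPM. Mpo made up most of that sum, with 921 ± 191 CPM in 1MO CLPs and 604 ± 66.2 CPM in 1MO MPPs. Of 10 tested, Elane was higher in CLPs at 1MO and Prtn3 lower at 3MO, against 2.57% of all genes higher and 3.34% lower at those ages, and the median log2 difference was 0.26 at 1MO and -0.49 at 3MO. T or NK marker sums were lower in CLPs at each age, with 0 of 3 tested called. Cd4 made up most of that sum in 1MO MPPs, at 14.8 CPM against 4.98 CPM in 1MO CLPs. Cd3e, Cd3d and Cd8a did not exceed 0.908 CPM in any library. Mast cell or eosinophil sums were lower in CLPs at 1MO, with 85.3 to 173 and 174 to 222 CPM. There Gata2, called at both ages, was 14.8 CPM in 1MO CLPs and 99.2 CPM in 1MO MPPs. Mcpt8 and Cpa3 were also lower on average in 1MO CLPs, while Prg2 (59.0 and 37.9 CPM) and Epx (33.1 and 23.6 CPM) were higher. The part of cells of these lineages in the values of Csf3r, Il1r1 and Il2rg was not tested. Ly6g was at 0 in 1MO CLPs and 1MO MPPs and at most 0.395 CPM elsewhere. Csf3r lies at chr4:126024550-126044440 on the plus strand.

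The GM-CSF receptor chains passed the test at neither age. Csf2ra, the ligand-binding chain (chr19:61223957-61228429, minus strand), was measured at 25.1, 47.9 and 28.8 CPM in 1MO CLPs, at 35.9, 42.5 and 34.4 CPM in 3MO CLPs, at 27.7, 53.9 and 30.5 CPM in 1MO MPPs and at 34.3, 74.4 and 38.2 CPM in 3MO MPPs. The groups overlapped, and 3MO MPP replicate 2 was the highest of all 12 libraries, while replicate 2 was also the highest within every group. The log2 difference was -0.13 (95% interval -0.86 to 0.59) at 1MO and -0.38 (-1.10 to 0.34) at 3MO.

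Csf2rb, the beta chain shared by the IL-3, IL-5 and GM-CSF receptors (chr15:78325752-78353847, plus strand), was measured at 122, 130 and 66.5 CPM in 1MO CLPs and at 61.7, 91.4 and 75.0 CPM in 3MO CLPs. In MPPs it was 179, 128 and 101 CPM at 1MO and 109, 100 and 79.8 CPM at 3MO. The cell types overlapped at each age, and the log2 difference between them was -0.36 (95% interval -0.91 to 0.20) at 1MO and -0.34 (-0.90 to 0.22) at 3MO. Mice also carry Csf2rb2, a neighbouring and near-identical beta chain that serves IL-3 alone, so reads shared by the pair make both values uncertain. Csf2rb2 was 46.4 ± 12.5 CPM in 1MO CLPs, 37.9 ± 8.31 in 3MO CLPs, 27.0 ± 6.99 in 1MO MPPs and 33.3 ± 18.8 in 3MO MPPs (SD, n = 3), and it passed the test at neither age. The Csf2rb to Csf2rb2 ratio per kilobase was 0.894 to 2.25 in CLPs and 1.31 to 6.16 in MPPs, overlapping ranges with a 1.88-fold lower mean in CLPs (exact permutation test, two-sided, p = 0.0238, adjusted p = 0.0397). For Csf2rb to Csf2ra the same exact permutation test gave p = 0.708, with 0.678 to 1.92 in CLPs and 0.530 to 2.55 in MPPs.

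The alpha chains that pair with Csf2rb for IL-3 and IL-5 were low. Il3ra was 16.1 ± 3.10 CPM in 1MO CLPs and 14.5 ± 2.24 CPM in 1MO MPPs, and Il5ra did not exceed 2.27 CPM in any library. Neither passed the test at either age.

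Il2rg was lower in the cells sorted for the IL-7 receptor. It was measured at 39.9, 56.3 and 50.6 CPM in 1MO CLPs and at 39.3, 42.7 and 46.1 CPM in 3MO CLPs, against 77.9, 72.8 and 93.6 CPM in 1MO MPPs and 63.8, 70.8 and 87.4 CPM in 3MO MPPs. The 2 cell types did not overlap at either age. The log2 difference was -0.73 ± 0.20 (SE) at 1MO and -0.79 ± 0.20 at 3MO, that is 1.66-fold and 1.73-fold lower in CLPs, with edgeR adjusted p of 0.0411 and 0.0258. These calls sit near the threshold: with 1 library left out, the 1MO call was lost in 9 of 12 fits, with an adjusted p up to 0.196, and the 3MO call in 5 of 12, with an adjusted p up to 0.110, while the log2 difference stayed between -0.61 and -0.89. The 1MO call was also lost with all genes of at least 1 count (edgeR adjusted p of 0.0637) and the 3MO call in a fit of only the 6 libraries compared (0.0879). Il2rg (chrX:101264378-101268255, minus strand) overlaps Gm20489 on the same strand.

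Crlf2, the TSLP receptor chain, followed the order of Il2rg without passing the test. Its values were 24.02, 21.2 and 19.7 CPM in 1MO CLPs and 21.9, 25.1 and 13.7 CPM in 3MO CLPs, and 24.8, 24.04 and 49.2 CPM in 1MO MPPs and 48.4, 36.6 and 34.2 CPM in 3MO MPPs. At 1MO the highest CLP library, at 24.02 CPM, lay just below the lowest MPP library, at 24.04 CPM, and at 3MO the groups were further apart. The log2 difference was -0.60 (95% interval -1.26 to 0.07) with an edgeR adjusted p of 0.402 at 1MO, and -0.97 (-1.64 to -0.30) with 0.0870 at 3MO, where DESeq2's Wald test gave an adjusted p of 0.0364. The 1MO difference shrank to -0.17 without 1MO MPP replicate 3, the library at 49.2 CPM. Crlf2 lies at chr5:109554709-109558993 on the minus strand. The Il2rg to Crlf2 ratio per kilobase was 1.04 to 2.11 in CLPs and 0.825 to 1.97 in MPPs, and the exact permutation test gave p = 0.985.

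Il7r, the partner of both chains, is a gate marker, so its levels are given as a description. It stood at 371 ± 37.6 CPM in 1MO CLPs and 340 ± 35.4 CPM in 3MO CLPs, and at 10.4 ± 7.14 and 10.4 ± 2.53 CPM in MPPs. Per kilobase, Il7r to Il2rg was 3.33 to 4.89 in CLPs and 0.0287 to 0.130 in MPPs, and Il7r to Crlf2 was 3.82 to 8.51 and 0.0342 to 0.247. In CLPs Il7r RNA was above that of either partner chain, and in MPPs it was below both.

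Among the other chains that pair with Il2rg, the IL-2 and IL-15 receptor chain Il2rb was 6.99 ± 2.51 CPM in 1MO CLPs and 0.341 ± 0.415 CPM in 1MO MPPs, with an edgeR adjusted p of 0.0358. That call was lost in 4 of 12 fits with 1 library left out, and at 3MO Il2rb was 5.33 ± 2.35 and 2.73 ± 3.31 CPM without a call. Il2ra did not exceed 0.952 CPM and was not tested. Il4ra, the IL-4 receptor chain, was even across groups, with 83.1 ± 9.36 CPM in 1MO CLPs and 87.2 ± 2.93 CPM in 1MO MPPs. Il21r, Il15ra and Il9r passed at neither age.

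Il1r1, the signaling receptor for IL-1, was lower in CLPs. It was measured at 83.7, 111 and 70.9 CPM in 1MO CLPs and at 182, 162 and 150 CPM in 1MO MPPs. At 3MO it was 120, 101 and 97.8 CPM in CLPs and 188, 184 and 170 CPM in MPPs. The cell types did not overlap, and the 3MO MPP libraries varied by only 5.07% (coefficient of variation). The log2 difference was -0.89 ± 0.18 (SE) at 1MO and -0.76 ± 0.18 at 3MO, or 1.86-fold and 1.70-fold lower in CLPs, with edgeR adjusted p of 0.00635 and 0.0177. The 3MO call was lost without 3MO CLP replicate 2 or 3 or 3MO MPP replicate 2, where the adjusted p was 0.0529 to 0.0751. Il1r1 lies at chr1:40225080-40317257 on the plus strand and overlaps Gm38070.

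Its co-receptor Il1rap did not share that difference, with 24.4 ± 1.96 CPM in 1MO CLPs, 22.9 ± 0.467 in 1MO MPPs, 27.7 ± 4.34 in 3MO CLPs and 26.1 ± 1.37 in 3MO MPPs (SD, n = 3). The Il1r1 to Il1rap ratio per kilobase was 4.96 to 8.81 in CLPs and 11.96 to 14.2 in MPPs, without overlap. It was 1.90-fold lower in CLPs (exact permutation test, two-sided, p = 0.00216, adjusted p = 0.00541, lower in 6 of 6 libraries). Il1r2, the decoy receptor for IL-1, did not exceed 3.24 CPM in any library.

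**Figure D2:**
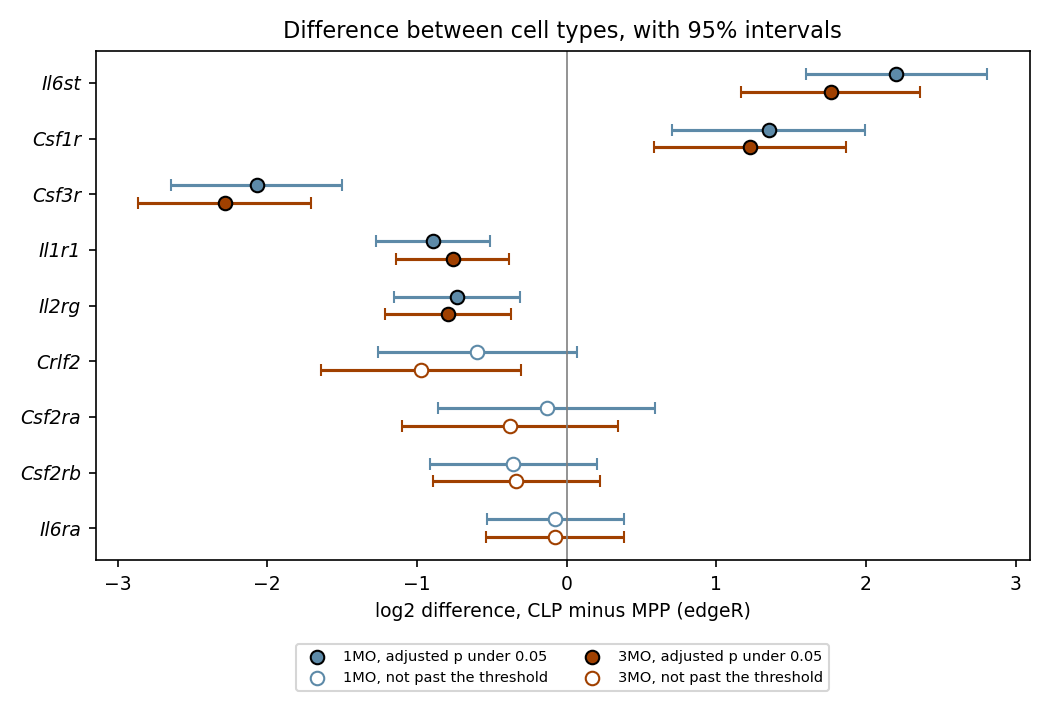
Log2 difference between CLPs and MPPs for each receptor at 1MO and 3MO (horizontal axis), with 95% intervals from the edgeR fit; filled points passed an adjusted p of 0.05. Il6st and Csf1r lie right of 0, Csf3r, Il1r1 and Il2rg lie left of it at both ages, and the 4 other receptors have open points.

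**Figure D3:**
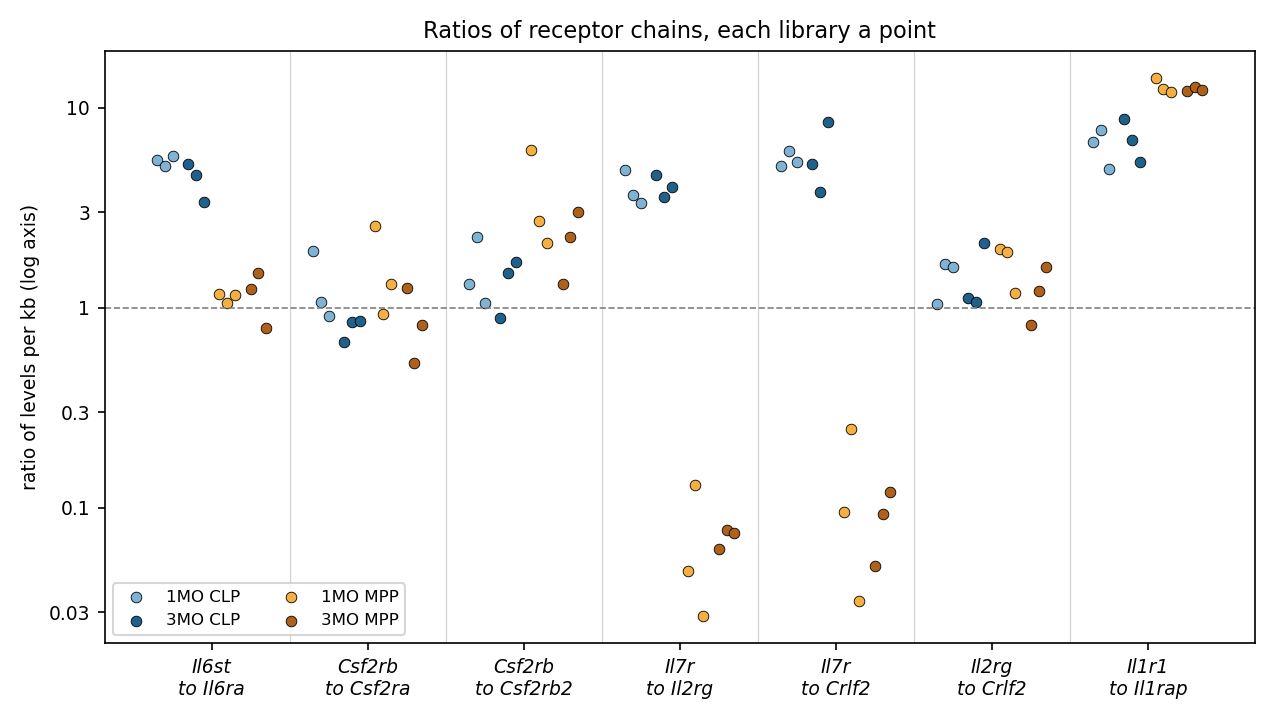
Ratio of the levels per kilobase of 2 receptor chains in each of the 12 libraries (log axis), by group, with a dashed line at a ratio of 1. The Il6st to Il6ra ratio is at or above 3.38 in all CLP libraries and at or below 1.497 in all MPP libraries, while Il2rg to Crlf2 overlaps between all groups.

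Age was compared within each cell type. Between 3MO and 1MO CLPs, 0 of 9 receptors passed an adjusted p of 0.05 in edgeR, against 0.0748% of all genes, and 0 of 9 had an unadjusted p under 0.05, against 5.9%. Between 3MO and 1MO MPPs it was again 0 of 9, against 0.0224% by adjusted p and 3.48% by unadjusted p. DESeq2 also called 0 of 9 in each, where it called 65 genes in CLPs and 35 in MPPs. The 1MO and 3MO libraries overlapped for all 9 receptors in each cell type, where the background of genes without overlap was 10.6% in CLPs and 8.57% in MPPs.

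The size of the age differences was small against their intervals. In CLPs the log2 difference of 3MO from 1MO ran from -0.48 for Csf2rb to 0.26 for Il1r1, and in MPPs from -0.50 for Csf2rb to 0.41 for Csf3r. Csf2rb had the smallest unadjusted p in each, 0.0864 in CLPs (95% interval -1.04 to 0.08) and 0.0751 in MPPs (-1.06 to 0.06). Its mean was 106 ± 34.6 CPM at 1MO and 76.1 ± 14.8 CPM at 3MO in CLPs, and 136 ± 39.7 and 96.2 ± 14.8 CPM in MPPs (SD, n = 3). Those ranges overlap in both cell types. For Il6st the log2 difference was -0.17 (-0.75 to 0.41) in CLPs and 0.27 (-0.32 to 0.85) in MPPs, and the latter turned to -0.31 without 3MO MPP replicate 2. That library was also the highest of its group for Il6ra, Csf2ra and Csf1r, and its lymphoid marker sum of 2549 CPM was above the 2166 and 2259 CPM of the other 3MO MPP libraries. The part of that difference in the receptor values was not tested.

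The interaction of age and cell type, which tests whether the age difference itself differs between CLPs and MPPs, was called for 0 of 9 receptors and 0% of all genes in edgeR. At an unadjusted p under 0.05 it was 0 of 9 receptors against 3.21% of all genes, and DESeq2 called 7 genes and 0 receptors. Its log2 values ran from -0.44 for Il6st to 0.13 for Il1r1.

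**Figure D4:**
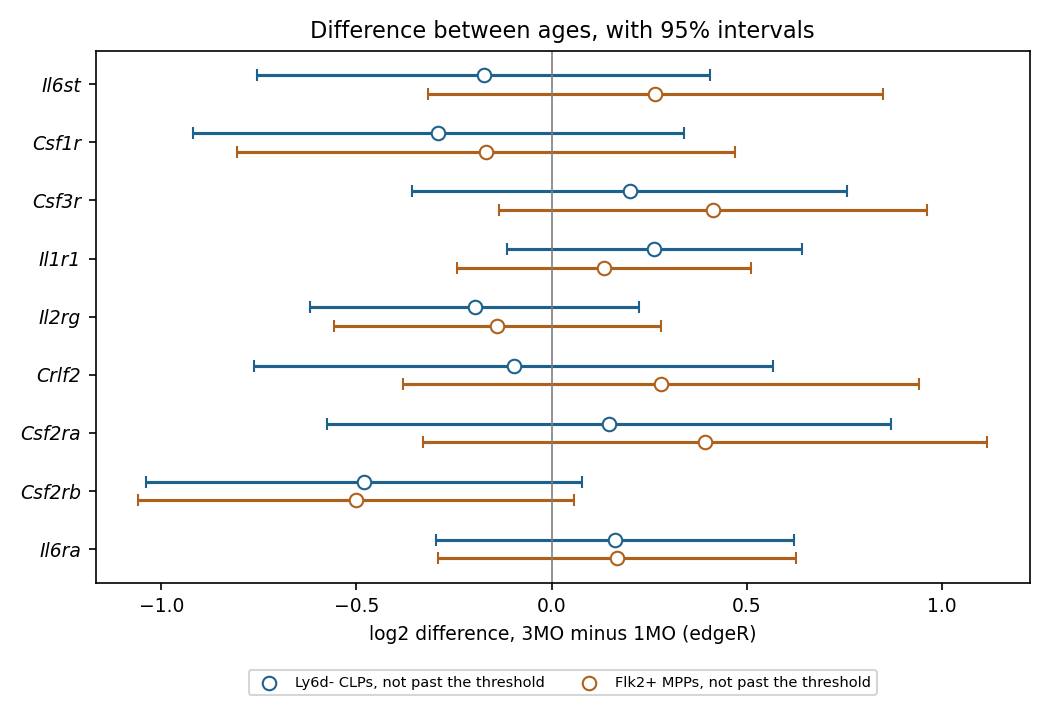
Log2 difference between 3MO and 1MO for each receptor in CLPs and in MPPs (horizontal axis), with 95% intervals from the edgeR fit. Every interval includes 0, and Csf2rb is lowest in both cell types, at -0.48 in CLPs and -0.50 in MPPs.

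Levels were compared between receptors only per kilobase of annotated exon, which is a proxy for the transcript length in these cells. In CLPs Il6st was first at both ages, with 60.2 ± 6.98 CPM per kb at 1MO and 53.4 ± 6.83 at 3MO, and its libraries did not overlap with those of the next receptor, Il2rg, at 20.5 ± 3.48 and 17.9 ± 1.41. Below Il2rg each receptor overlapped with its neighbour in the order, down to Csf3r at 9.99 ± 3.996 in 1MO CLPs and Csf2rb at 10.5 ± 2.04 in 3MO CLPs. In MPPs Csf3r was first, with 41.9 ± 9.24 CPM per kb at 1MO and 55.8 ± 12.4 at 3MO. It overlapped with Il2rg, the next in order at 34.1 ± 4.54, at 1MO but not at 3MO, where Il2rg was 31.0 ± 5.08. Il1r1 and Crlf2 followed, and Csf1r was last, with 6.67 ± 1.12 and 5.92 ± 1.99 CPM per kb and no overlap with the receptor before it, Il6ra. Csf1r was above Csf3r by mean level in CLPs at both ages, with overlap at 3MO, and below it in MPPs without overlap.

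**Figure D5:**
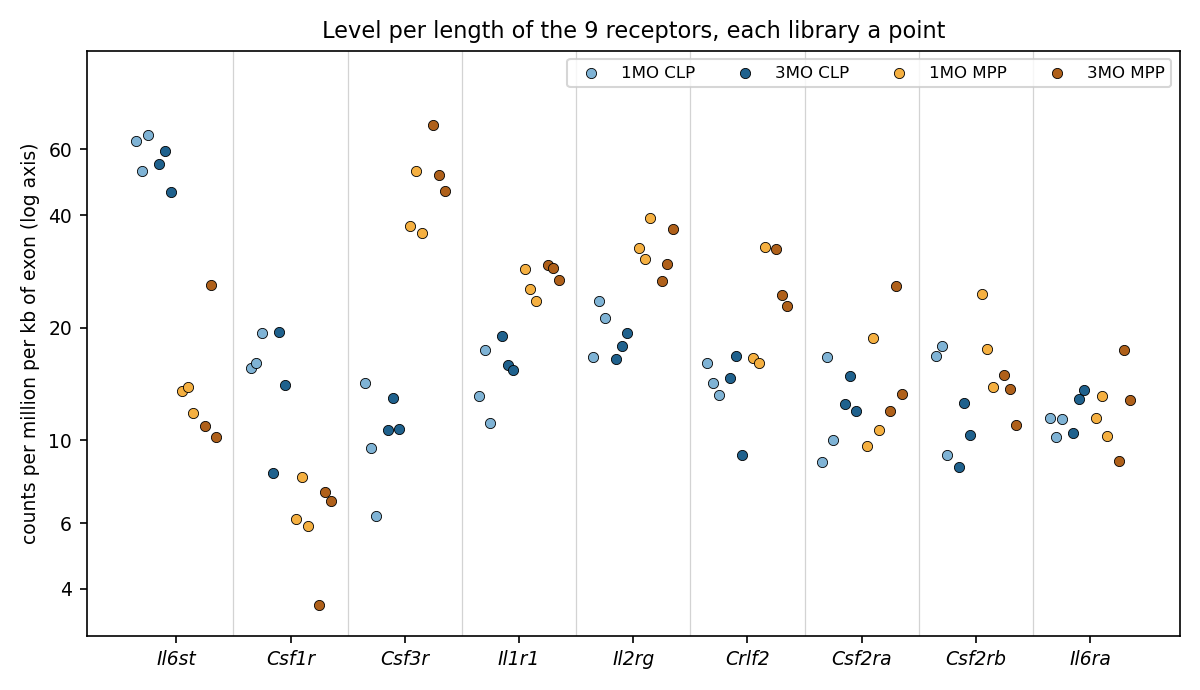
Level of each receptor in CPM per kilobase of exon (log axis) in the 12 libraries, by group. Il6st is highest in CLPs, at 46.0 to 65.4, Csf3r has the highest group mean in MPPs, at 35.8 to 69.8, where Il2rg overlaps with it at 1MO, and the other values lie between 3.63 and 39.2.

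The wider set of 43 partner and related receptors, 38 of them tested, gave 6 higher and 4 lower in CLPs at 1MO and 5 higher and 4 lower at 3MO, with 0 called for age in either cell type. The cell type counts include Il7r, higher, and Kit, lower, at both ages, whose proteins the gates themselves used. Over all genes tested the share called was 5.38% at 1MO and 6.07% at 3MO, and 0.0748% and 0.0224% for age in CLPs and MPPs. The median log2 difference was 0.12 at 1MO and -0.12 at 3MO, against -0.02 and -0.03 over all genes tested. Il18rap, a chain of the IL-18 receptor, was 368 CPM in 1MO CLPs and 166 CPM in 1MO MPPs on average, with log2 differences of 1.15 and 1.33 at the 2 ages and edgeR adjusted p of 0.000216 and 7.84e-05. Kit, the stem cell factor receptor, was lower in CLPs by -1.32 and -1.65 on the log2 scale, but is a gate marker.

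Of 27 ligand genes 12 were tested, and 0 passed at 1MO and 1 at 3MO, where 6.07% of all genes did. Ebi3, a subunit of IL-27, was 4.26 ± 1.57 CPM in 3MO CLPs and 13.9 ± 4.71 CPM in 3MO MPPs, with an edgeR adjusted p of 0.0329 that was lost in 4 of 12 fits with 1 library left out. None of the ligands was called for age. The median log2 difference of the 12 was -1.49 at 1MO and -0.62 at 3MO, against -0.02 and -0.03 over all genes tested. Several of the 12 were very low, which limits that comparison. Il7, Kitl, Lif and Il27 averaged at most 0.377 CPM in 1MO CLPs, while Clcf1 averaged 52.9 CPM there. Kitl ranged from 1.21 to 14.5 CPM in 1MO MPPs.

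Of 36 receptor-proximal signaling genes, all tested, 0 were higher and 2 lower in CLPs at 1MO, and 3 were higher and 1 lower at 3MO, against 5.38% and 6.07% of all genes, so that the 1MO count was at the background. Jak3, the kinase that binds the common gamma chain encoded by Il2rg, was lower at both ages, as Il2rg was, with 150 and 243 CPM in 1MO CLPs and MPPs and 166 and 268 CPM at 3MO. Its log2 difference was -0.70 at 1MO and -0.69 at 3MO, with edgeR adjusted p of 0.0201 and 0.0208, and the call was lost in 4 and 3 of 12 fits with 1 library left out. Socs5, a suppressor of cytokine signaling, was lower at 1MO by -1.25, with an edgeR adjusted p of 0.00821 that was lost in 2 of 12 such fits. At 3MO Socs2, of the same family, was higher by 2.53, with 32.1 CPM in CLPs and 5.57 CPM in MPPs and an edgeR adjusted p of 0.000298, and so were Pik3cd, a lymphoid PI3-kinase subunit, by 0.86 and Cbl, a ubiquitin ligase for receptors, by 0.84, the last lost in 3 of 12 such fits. The list had 0 genes called for age in CLPs or MPPs. Of 12 genes for receptor processing and turnover, which include the sheddases Adam10 and Adam17, 10 were tested and 0 passed in any comparison.

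The genes whose log2 CPM followed each receptor most closely over the 12 libraries are given by Pearson's r, as a description. For the receptors that differed by cell type these values rest largely on the gap between CLPs and MPPs, which all such genes share. Sema4d (r = 0.98), Mex3b (0.98) and Ighm (0.98) were closest to Il6st, and Mapkapk2 (0.96), Gm29050 (0.96) and Zfp362 (0.96) to Csf1r. Mecom (0.98), Cers4 (0.98) and Pip5k1b (0.97) were closest to Csf3r, Ifitm3 (0.98), Basp1 (0.97) and Txnip (0.97) to Il2rg, and Tie1 (0.96), Vldlr (0.95) and Apol7e (0.95) to Il1r1. For Csf2ra, Il6ra and Csf2rb, which edgeR called in no comparison, the best r was lower, at 0.84 for Sp1 with Csf2ra, 0.87 for Nuak2 with Il6ra and 0.90 for 2010315B03Rik with Csf2rb. Aldoc (0.95) was closest to Crlf2.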

How the data were processed

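RNA of 12 libraries, 3 in each of 4 groups, was analysed from the table of estimated counts per gene that the authors deposited. Per the labels, the reads were handled with FastQC, UMI-tools, Trim Galore, STAR, Salmon and DESeq2 on mm10, and the strand setting of the counting is not given in the sources used here. Salmon shares reads between similar transcripts by estimation, so counts of near-identical genes such as Csf2rb and Csf2rb2 depend on that step. Of 32285 gene IDs, 32158 matched GENCODE M21 (GRCm38), which gave positions and merged exon lengths for the levels per kilobase; these are not Salmon's effective lengths. No column of another sample was present.

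The estimated counts were rounded to whole numbers and filtered with filterByExpr, which kept 13367 genes. Libraries were scaled by TMM and fitted together with edgeR 4.0.16 (quasi-likelihood, R 4.3.3), with Benjamini-Hochberg adjustment over all genes tested and a threshold of 0.05. Totals of 8889083 to 20677785 counts per library limit the precision of low genes. The series describes independent experimental repeats and the study sorted cells per mouse, but the labels do not tie libraries to mice, so p-values measure the spread between these libraries. Ratios of 2 chains were compared between 6 CLP and 6 MPP libraries by exact permutation tests in Python 3.11.15 with scipy 1.17.1; they pool both ages, and 5 ratios were tested. Alternatives were DESeq2 1.42.0, its size factors, a filter of at least 1 count, a fit to the 6 libraries compared, replicate blocks and leaving out each library. Scripts were tested on simulated data.

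Named were all 9 receptors, the chains that pair with them, up to 4 genes of each list with the smallest adjusted p, and the 3 genes most alike to each receptor; single marker genes were chosen after their values were seen. A gene that this rule names is not reported here. Receptors and lists were chosen with earlier results of these data known. Promoters came from RefSeq on GRCm38.p6.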

Additional observations from a re-analysis of the deposited data

How the results depend on the processing

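The calls for Il6st and Csf3r kept their direction and stayed past an adjusted p of 0.05 at both ages in every alternative run, leave-one-out fits included. With DESeq2 the genes called numbered 65 for age in CLPs, 35 for age in MPPs, 1237 for cell type at 1MO, 1438 at 3MO and 7 for the interaction. With all genes of at least 1 count they numbered 46 and 26 for age in CLPs and MPPs and 6 for the interaction, the call for Il2rg at 1MO was lost (edgeR adjusted p 0.0637), and the Csf2rb interaction was -0.0042. In a fit of only the 6 libraries compared, which holds fewer samples, 4 genes were called for age in CLPs and 435 for cell type at 3MO, where 3 receptors passed; Csf1r (0.101) and Il2rg (0.0879) did not, nor did Jak3 (0.0781), Cbl (0.0585) and Ebi3 (0.102). For the other changes the cause was not tested.

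Leaving out 1 library at a time gave 6 to 10 genes for age in CLPs, 3 to 5 for age in MPPs, 460 to 887 for cell type at 1MO with 3 to 5 receptors, 2 to 5 receptors at 3MO, and 0 to 1 genes for the interaction. Differences that passed no test changed sign in some of these fits. For age in CLPs the log2 range was -0.029 to 0.48 for Csf2ra, -0.048 to 0.53 for Csf3r and -0.29 to 0.12 for Crlf2. For age in MPPs it was -0.34 to 0.084 for Csf1r, -0.042 to 0.75 for Csf2ra, -0.10 to 0.38 for Il6ra and -0.31 to 0.50 for Il6st. For cell type at 1MO it was -0.47 to 0.22 for Csf2ra, -0.16 to 0.021 for Il6ra, -0.018 to 0.25 for Il3ra, -0.13 to 0.020 for Il4ra and -0.24 to 0.39 for Il21r, and at 3MO -0.58 to 0.054 for Csf2ra, -0.29 to 0.19 for Il6ra, -0.12 to 0.72 for Csf2rb2, -0.29 to 0.15 for Il4ra and -0.047 to 0.18 for Il1rap. For the interaction it was -0.45 to 0.14 for Csf1r, -0.60 to 0.19 for Csf2ra, -0.23 to 0.19 for Csf2rb, -0.46 to 0.12 for Csf3r, -0.22 to 0.26 for Il6ra, -0.67 to 0.14 for Il6st, -0.18 to 0.079 for Il2rg and -0.0084 to 0.33 for Il1r1. For the ratios, whose leave-one-out values were added after seeing the data, it was -0.36 to 0.098 for Csf2rb to Csf2ra and -0.15 to 0.098 for Il2rg to Crlf2.

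Both cell types were sorted per mouse in the study, but no source used here says that a shared replicate number marks a mouse, so the numbers were not taken as pairs. Some values recurred by number. The erythroid marker sum was highest in replicate 3 of every group, at 55.7 to 99.7 CPM, against 9.09 to 22.8 CPM in the other libraries. Csf2ra was highest in replicate 2, and Il1r1 lowest in replicate 3, of every group. The correlation of deviations from the group means in same-numbered libraries was -0.034 to 0.204 within an age (1 of 6 pairs over 0.1), -0.013 to 0.213 within a cell type (2 of 6) and -0.033 to 0.159 otherwise (2 of 6); for libraries of different number it exceeded 0.1 in 1, 0 and 0 of 12 pairs. With a block of age and number as pairs, 836 genes and 5 receptors were called at 1MO and 921 genes and 5 receptors at 3MO. A block of replicate number over the 12 libraries gave 11 genes for age in CLPs and 3 in MPPs. The pair block turned Il21r at 1MO to -0.057, not past the threshold, and brought Lifr at 3MO past it (1.30, edgeR adjusted p 0.0356). The block over 12 libraries turned the Il6ra interaction to 0.0082, not past the threshold.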

Other observations

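Receptors outside the 9, chosen after their values were seen, also differed between the cell types. Il18r1, the other chain of the IL-18 receptor, was 34.6 ± 2.42 CPM in 1MO CLPs and 14.9 ± 3.32 CPM in 1MO MPPs, and 64.4 ± 20.7 and 24.9 ± 3.50 CPM at 3MO (SD, n = 3), with edgeR adjusted p of 0.0127 and 0.0058. Tgfbr2, the TGF-beta receptor chain, was 67.3 ± 11.6 CPM in 1MO CLPs and 112 ± 4.83 CPM in 1MO MPPs, and Il12rb2, an IL-12 receptor chain, was 9.03 ± 3.88 and 24.5 ± 1.05 CPM, with edgeR adjusted p of 0.0382 and 0.0225. At 3MO Tgfbr2 was 54.7 ± 3.87 and 92.8 ± 21.1 CPM and Il12rb2 was 8.91 ± 0.868 and 25.6 ± 8.29 CPM, with edgeR adjusted p of 0.0284 and 0.0165. Il10ra, the IL-10 receptor chain, was higher in CLPs at 1MO, with 70.0 ± 6.95 and 41.6 ± 3.48 CPM and an edgeR adjusted p of 0.0244, and gave 0.431 at 3MO. Ifnar1, a type I interferon receptor chain, was higher at 3MO, with 245 ± 34.7 and 156 ± 16.5 CPM and an edgeR adjusted p of 0.0271, and gave 0.0692 at 1MO. For these genes the difference between the ages was not called in the interaction test.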
